A study of Mus musculus with 12 samples.

Results

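Described here are 6 mouse genes, Mc4r, Otp, Sim1, Arnt2, Pou3f2 and Mrap2, taken by name from tables that hold 55809 gene symbols each. They were followed through 12 sorted-cell RNA sequencing libraries in 4 groups of 3. The study set out to find transcription factors that control Mc4r in the hypothalamus. Hypothalamic cells of Mc4r-Cre; Ai14 mice aged 4 weeks, with no treatment, were sorted into TOM positive (TOM+) and TOM negative (TOM-) cells. In a second experiment, mice with the genotype Otp fl/fl; Ai14 received AAV-Cre or AAV-GFP, adeno-associated viruses (AAV) that deliver Cre or a green protein. At 26 weeks of age, 12 weeks after the virus, their paraventricular nucleus (PVH) was dissected, and the sort kept TOM positive cells in the Cre group but GFP positive cells in the GFP group. Ai14 is a red reporter (tdTomato, TOM) that Cre switches on for good, so a cell stays red after the Mc4r promoter has gone silent. Both AAV groups carry the floxed Otp allele and the reporter, and the sort gate differs between them. The labels give no promoter for either virus, do not say which Otp exons are floxed, and name neither batches nor single animals. P-values therefore measure the spread between libraries, which may be technical.

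The melanocortin 4 receptor, encoded by Mc4r, is a G protein-coupled receptor through which melanocortin peptides restrain food intake, and PVH neurons are a main site of this action. Mrap2 encodes an accessory membrane protein that binds melanocortin receptors and modulates their signalling. The other 4 genes encode transcription factors needed to form PVH neuroendocrine neurons. Otp is a homeodomain protein, Sim1 and Arnt2 are basic helix-loop-helix PAS proteins that act as a dimer with each other, and Pou3f2 (Brn2) is a POU domain protein that acts below that dimer. Loss of Mc4r or of Mrap2, or of a single copy of Sim1, makes mice obese.

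The 250 bases before the RefSeq start of Otp and of Sim1 (build GRCm38.p6) are shown because Otp was the gene targeted and Sim1 is the PVH factor beside it in the results. They were searched for TAAT, the core of homeodomain binding sites such as those of the Otp family, and its reverse complement ATTA, which are in capitals. Both lie on the plus strand, Otp at chr13:94875386-94875635 and Sim1 at chr10:50895401-50895650.
Otp: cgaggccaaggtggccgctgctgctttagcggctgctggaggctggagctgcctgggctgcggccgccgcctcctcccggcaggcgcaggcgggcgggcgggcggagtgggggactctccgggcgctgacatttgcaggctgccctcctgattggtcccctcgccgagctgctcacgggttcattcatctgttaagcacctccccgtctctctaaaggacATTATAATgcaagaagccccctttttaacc
Sim1: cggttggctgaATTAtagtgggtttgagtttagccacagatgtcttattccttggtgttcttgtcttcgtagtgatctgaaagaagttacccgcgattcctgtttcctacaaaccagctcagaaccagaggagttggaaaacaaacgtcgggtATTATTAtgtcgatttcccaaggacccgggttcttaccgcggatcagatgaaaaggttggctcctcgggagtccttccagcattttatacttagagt
Of the 6 genes, 5 matched the RefSeq promoter table. TAAT occurred on either strand in 2 of these 5 windows, Otp and Sim1, and in 54.9% of 32851 windows of this length. The full palindrome TAATTA (4.84% of all windows) and the POU octamer ATGCAAAT (1.6%, both strands) occurred in none of the 5. ACGTG, the core bound by dimers of the Sim1 and Arnt2 type, occurred in the Pou3f2 window (16.6% of all windows, both strands). A match of letters describes the sequence and shows no binding.

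In the GENCODE vM30 annotation used for the counts, Mc4r lies on chromosome 18 from 66990775 to 66993577 and Pou3f2 on chromosome 4 from 22482780 to 22488366, both on the minus strand and each as 1 exon block. Otp lies on chromosome 13 from 95012110 to 95021638 in 4 exon blocks, and Sim1 on chromosome 10 from 50770850 to 50865248 in 13, both on the plus strand. Arnt2 lies on chromosome 7 from 83895486 to 84059384 on the minus strand in 26 exon blocks, and Mrap2 on chromosome 9 from 87026359 to 87066098 on the plus strand in 6. Annotated exonic lengths ran from 2257 bases for Mrap2 to 8621 for Sim1. The AAV libraries were counted without strand (the setting for the TOM libraries is not given in the sources used here), and an antisense gene shares 214 exonic bases with Arnt2 and another 339 with Pou3f2. Both antisense genes had 0 counts in all 12 libraries, and the counter's settings for the AAV libraries leave out a read that lies over more than 1 gene.

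Library totals ran from 13506018 to 27827853 counts. Values below are counts, or CPM (counts scaled to library size, with TMM factors within each experiment). TOM+ libraries held 0.0548% ± 0.00767 of their counts in 15 pan-neuronal genes and TOM- libraries 0.00781% ± 0.000737 (SD, n = 3 each), while 8 oligodendrocyte genes held 9.01% ± 0.542 and 1.98% ± 0.269. All 15 pan-neuronal genes were counted in every TOM+ library, and 8 microglial genes, at 348 to 839 CPM summed in TOM+ and 21301 to 24977 in TOM-, fell in all 8 cases. In the AAV libraries Avp and Oxt, peptide genes of PVH neurosecretory cells, had at least 2320 and 453 counts in each. Each AAV-Cre library had a count for fewer genes (14747 to 16988) than any AAV-GFP library (20778 to 23902). Ependymal and tanycyte genes (5 genes) summed to 5.22 to 17.7 CPM after AAV-Cre and 469 to 898 after AAV-GFP, and 6 endothelial genes to 0 to 26 and 120 to 180. Among the defining genes, Rax, Emcn and Cdh5 had 0 counts in all 3 AAV-Cre libraries. Glial genes went the other way: 8 microglial genes summed to 4552 to 8841 CPM after AAV-Cre and 2425 to 3784 after AAV-GFP. The 8 oligodendrocyte genes took 5.78% ± 0.6 of the counts after AAV-Cre and 3.25% ± 1.72 after AAV-GFP (SD, n = 3 each). In sorted pools, fewer cells of a type and less RNA per cell cannot be told apart.

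Mc4r reads were few and were not found in every library sorted on its reporter. TOM+ replicate 1 held 63 counts of Mc4r (3.23 CPM), TOM+ replicates 2 and 3 held 0, and each TOM- library held 0. A count of 0 allows up to 0.102 CPM in TOM+ replicate 2 and 0.0998 CPM in TOM+ replicate 3 (3 counts), so the first library lay far above the level the others allow. These limits cover counting error only, since reads were not marked by molecule. The AAV-GFP libraries held 22, 11 and 13 counts of Mc4r, or 1.14, 0.797 and 0.915 CPM. Each AAV-Cre library held 0, which allows up to 0.187, 0.204 and 0.206 CPM. The AAV-GFP and AAV-Cre values of Mc4r did not overlap.

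Mrap2, the accessory protein gene, had more reads than Mc4r in 5 of the 6 PVH libraries, neither having any in AAV-Cre replicate 1, and was sporadic in the TOM sorts. It had 118, 181 and 267 counts after AAV-GFP (6.1, 13.1 and 18.8 CPM) and 0, 119 and 221 after AAV-Cre (0, 8.07 and 15.2 CPM). AAV-Cre replicates 2 and 3 lay within the AAV-GFP range and replicate 1 had none. In the younger hypothalamus, Mrap2 had 0, 0 and 47 counts in TOM+ and 0, 43 and 0 in TOM- libraries, so 1 library of each group carried all of its reads. TOM+ replicate 1, the library with Mc4r reads, had no Mrap2 read. Per kilobase of exon, Mrap2 exceeded Mc4r by 6.66, 20.4 and 25.5 times in the 3 AAV-GFP libraries.

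Otp, the gene deleted by Cre, had 91, 102 and 38 counts after AAV-GFP (4.71, 7.39 and 2.67 CPM) and 12, 9 and 10 after AAV-Cre (0.748, 0.611 and 0.687 CPM). The lowest AAV-GFP library lay above the highest AAV-Cre library, and the AAV-Cre libraries were close to each other. Reads of Otp remained in every AAV-Cre library, each above the 3 counts that a count of 0 would allow. In the TOM sorts Otp had 36, 27 and 1 counts in TOM+ libraries (1.85, 0.92 and 0.0333 CPM) and 0 in each TOM- library. A single read separates TOM+ replicate 3 from the TOM- libraries.

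Sim1, partner of Arnt2, had 0 counts in all 6 TOM libraries. In the PVH it had 18, 12 and 9 counts after AAV-GFP (0.931, 0.87 and 0.633 CPM) and 0, 26 and 22 after AAV-Cre (0, 1.76 and 1.51 CPM). AAV-Cre replicates 2 and 3 lay above all AAV-GFP libraries and replicate 1 below them. Arnt2 was counted in all 12 libraries, with 869, 1479 and 662 counts after AAV-GFP (44.9, 107 and 46.6 CPM) and 2434, 1202 and 1639 after AAV-Cre (152, 81.5 and 113 CPM). The AAV groups overlapped through AAV-GFP replicate 2. In TOM+ libraries Arnt2 had 450, 421 and 475 counts (23.1, 14.3 and 15.8 CPM) and in TOM- libraries 95, 374 and 367 (4.78, 18.1 and 16.8 CPM), so that only TOM- replicate 1 stood below the TOM+ range.

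Pou3f2 was also counted in all 12 libraries. It had 84, 74 and 105 counts after AAV-GFP (4.34, 5.36 and 7.39 CPM) and 65, 34 and 30 after AAV-Cre (4.05, 2.31 and 2.06 CPM). The groups did not overlap, by a margin of AAV-GFP replicate 1 over AAV-Cre replicate 1. In the TOM sorts it had 43, 286 and 35 counts in TOM+ (2.21, 9.75 and 1.16 CPM) and 31, 46 and 86 in TOM- libraries (1.56, 2.23 and 3.94 CPM). TOM+ replicate 2 was the high library, and the other two lay within or below the TOM- range.

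**Figure D1:**
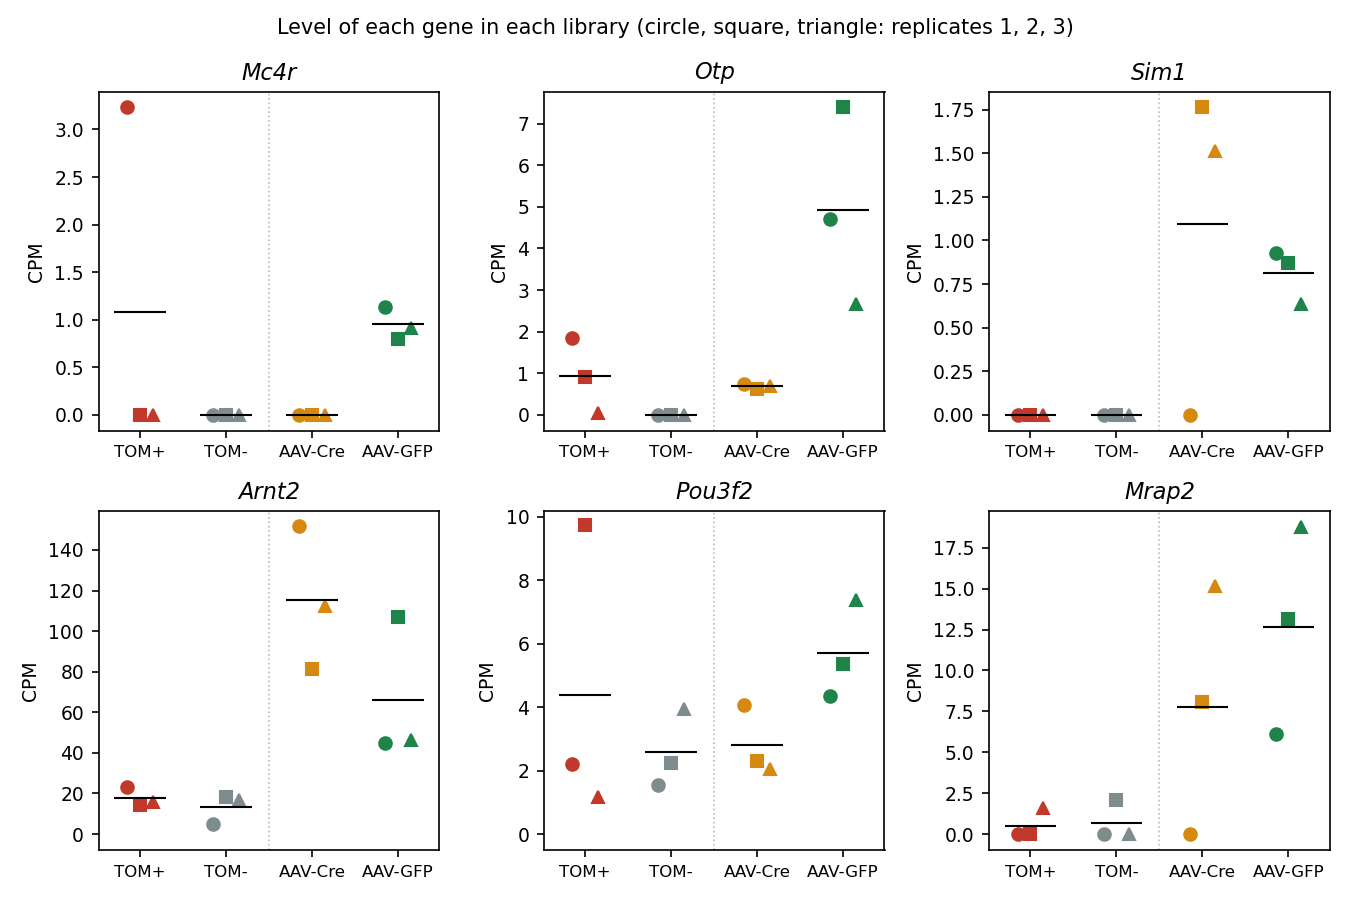
CPM of the 6 genes (y axis, its own scale in each panel) in the 12 libraries by group (x axis); marks are replicates 1, 2 and 3 and bars are means. Mc4r and Otp lie higher in AAV-GFP than in AAV-Cre libraries, while Mrap2 and Sim1 have 1 AAV-Cre library at 0.

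Dividing by exonic length put the 6 genes on 1 scale, CPM per kilobase. After AAV-GFP the order of means was Arnt2 (8.61 ± 4.61), Mrap2 (5.61 ± 2.82), Otp (1.71 ± 0.821), Pou3f2 (1.02 ± 0.278), Mc4r (0.339 ± 0.0617) and Sim1 (0.0941 ± 0.0182; SD, n = 3). Arnt2 and Mrap2 overlapped in this order, as did Otp and Pou3f2, and the other neighbours were separate in all 3 libraries. Among the 26361 genes with a count in AAV-GFP libraries, 80.2% had a lower mean per kilobase than Arnt2, 38.8% a lower one than Mc4r and 22.9% a lower one than Sim1.

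After AAV-Cre the order was Arnt2 (15 ± 4.57 CPM per kilobase), Mrap2 (3.43 ± 3.37), Pou3f2 (0.502 ± 0.194), Otp (0.237 ± 0.0239), Sim1 (0.127 ± 0.111) and Mc4r, which was at 0. Otp stood below Pou3f2 in every pairing of libraries here, where it had overlapped Pou3f2 after AAV-GFP. In TOM+ libraries Arnt2 led (2.31 ± 0.609) and lay above Pou3f2 (0.783 ± 0.838) in all 3. Pou3f2, Mc4r, Otp and Mrap2 overlapped one after the other there, and Sim1 was at 0. In TOM- libraries Arnt2 (1.72 ± 0.956) and Pou3f2 (0.461 ± 0.22) overlapped, Mrap2 rested on 1 library, and Mc4r, Otp and Sim1 were at 0.

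The 2 dimer partners differed widely in level. Per kilobase, Arnt2 exceeded Sim1 by 54.1, 138 and 82.5 times in the AAV-GFP libraries and by 51.8 and 83.5 times in AAV-Cre replicates 2 and 3. Otp exceeded Sim1 by 15.1, 25.4 and 12.6 times in AAV-GFP libraries and by 1.04 and 1.36 times in these 2 AAV-Cre libraries. Arnt2 is transcribed broadly in neurons and Sim1 in few of them, as background, and the sorted pools do not show which cells held either mRNA.

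**Figure D2:**
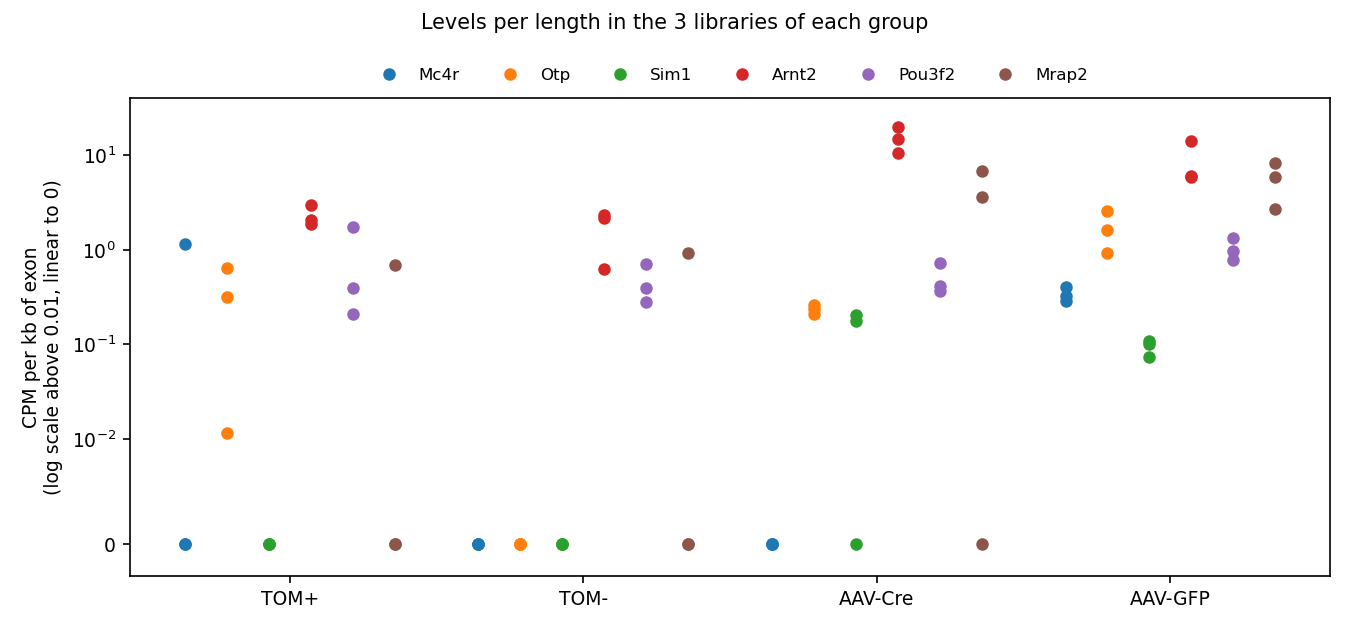
CPM per kilobase of exon (y axis, logarithmic above 0.01 and linear below it) of the 6 genes in the 3 libraries of each group (x axis); each point is 1 library. Arnt2 is highest by mean in every group, and Sim1 has no reads in either TOM group.

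The first comparison asked how TOM+ cells differ from TOM- cells. Neither Arnt2 nor Pou3f2 passed the test. These were the only 2 of the 6 genes with enough reads in enough libraries to be tested. Passing means a Benjamini-Hochberg adjusted p below 0.05 in edgeR's quasi-likelihood test on all 15228 genes that cleared the count filter, of which 23.9% passed. Of the 2, 0 passed with edgeR, where 10.4% of all genes passed as higher in TOM+ cells and 13.4% as lower. An unadjusted p under 0.05 was met by 0 of the 2 and by 36.4% of all genes tested. The log2 fold change of Arnt2 in TOM+ cells was 0.42 ± 0.55 (SE; edgeR adjusted p = 0.63), with a 95% interval from -0.86 to 1.71. Pou3f2 had 0.76 ± 0.97 (edgeR adjusted p = 0.623), with an interval from -1.51 to 3.04, and without TOM+ replicate 2 its value was -0.62.

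Mc4r, Otp, Sim1 and Mrap2 did not clear the count filter. Summed over groups and against a floor of 3 counts over the TOM- group, Otp was at least 16.9-fold and Mc4r at least 16.6-fold higher in TOM+ cells, by counting error only. Without TOM+ replicate 1, Mc4r had no read left and the bound for Otp was 9.8-fold, and without TOM- libraries in turn the bounds ran from 10.8-fold to 11.3-fold for Mc4r. The exact permutation p over the 6 CPM values (two-sided) was 0.1 for Otp, the smallest that 3 against 3 can give, and 1 for Mc4r. With edgeR and no count filter, the adjusted p was 0.112 for Otp and 0.209 for Mc4r. With DESeq2, another count model, and its own filter, it was 0.0437 for Otp (log2 fold change 6.72 ± 2.73) and 0.171 for Mc4r. By that model 5521 of 16776 genes passed, 2511 of them as higher in TOM+ cells. Otp had reads in TOM+ libraries only, so it could enter either test only as higher there. Of genes with a count in each TOM+ library, 0.742% had 0 in all TOM- libraries, and Otp was among them. Of all genes tested, 20.8% had TOM+ values that lay wholly above the TOM- values.

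The TOM- libraries also held few neuronal reads, so the zeros there reach less far. TOM- libraries had 1609 to 1886 counts over the 15 pan-neuronal genes, and TOM+ libraries 11217 to 14118. Per 10000 pan-neuronal counts, Otp stood at 32.1, 19.1 and 0.744 and Mc4r at 56.2, 0 and 0 in the TOM+ libraries. In the TOM- libraries 3 counts would already be worth 15.9, 18.6 and 16.3 on this scale. Over the summed groups, Otp was at least 2.93-fold and Mc4r at least 2.89-fold higher per pan-neuronal count in TOM+ cells, again by counting error only. On the same scale Arnt2 was higher in TOM- cells, with a log2 fold change of -2.20 when libraries were scaled to these genes (edgeR adjusted p = 0.0129), a scaling that moved the median of all genes tested by -2.54. The value of Arnt2 lay less far below 0 than that shift, and which cells held its TOM- reads was not tested.

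The TOM+ libraries also differed from each other in some hypothalamic peptide and transcription factor genes. Pmch, the melanin-concentrating hormone precursor of the lateral hypothalamus, had 1184 counts in TOM+ replicate 1, the library with Mc4r reads, against 35 and 92 in TOM+ replicates 2 and 3. Trh, the thyrotropin-releasing hormone precursor, had 293 against 84 and 55. Other genes were highest in another library, such as Avp with 5, 238 and 36 counts, Crh with 0, 0 and 88 and Tbx3, a factor of the arcuate nucleus, with 0, 0 and 84. Uncx, a homeodomain factor gene, had 36, 30 and 0 counts in TOM+ and 0 in each TOM- library, close to the pattern of Otp. No single TOM+ library was highest for all of these genes, which were named after their values were seen. Other hypothalamic marker genes varied less over the TOM+ libraries, such as Hcrt with 23, 29 and 24 counts and Pomc with 29, 44 and 36.

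The second comparison asked what differed in PVH cells after AAV-Cre. All 6 genes entered the edgeR test on 15408 genes, and 0 passed, where 2.6% of all genes did (1.97% as lower after AAV-Cre). At an unadjusted p under 0.05 stood 2 of the 6 (Mc4r and Otp) and 18.8% of all genes tested. With DESeq2 and its own filter, 2 passed, the same pair, beside 1884 of 18864 genes (1301 of them lower after AAV-Cre). Mc4r had reads in AAV-GFP libraries only and cleared the filters through them, so it could enter a test only as lower after AAV-Cre, and its p-values are given as a description. For 3 of the 6, Mc4r, Otp and Pou3f2, all AAV-Cre values lay below all AAV-GFP values, which held for 18.6% of all genes tested, with 28.5% separate in either direction. The median log2 fold change was -0.86 over the 6 genes and -0.16 over all genes tested. Each AAV-Cre library had fewer genes with a count, less ependymal and endothelial mRNA and more microglial mRNA, as given above. The part of any of these in the values was not tested.

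Otp averaged 0.682 ± 0.0689 CPM after AAV-Cre and 4.92 ± 2.37 after AAV-GFP (SD, n = 3), which is 7.22-fold lower by the means. Its log2 fold change was -2.84 ± 0.87 (edgeR adjusted p = 0.134), with a 95% interval from -4.87 to -0.80. The DESeq2 adjusted p was 0.00225, and 0.0364 when DESeq2 was run on the genes edgeR had tested. Mc4r was at least 14.7-fold lower after AAV-Cre against a floor of 3 counts over the group, and at least 9.49-fold lower when AAV-Cre replicate 1 was left out. Its edgeR adjusted p was 0.0596. Its DESeq2 adjusted p was 0.0225, and 0.173 on the genes edgeR had tested. The exact permutation p (two-sided) was 0.1 for each of these genes, the smallest possible.

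Pan-neuronal genes gave another scale for Otp and Mc4r. These 15 pan-neuronal genes took 0.277% ± 0.026 of the counts after AAV-Cre and 0.196% ± 0.0508 after AAV-GFP, and 0 passed with edgeR, with 1 at an unadjusted p under 0.05. Per 10000 pan-neuronal counts, Otp stood at 2.58, 2.41 and 2.79 after AAV-Cre and at 22.2, 50.8 and 10.1 after AAV-GFP. Mc4r stood at 5.36, 5.48 and 3.44 on this scale after AAV-GFP, where 3 counts in the AAV-Cre libraries would be worth 0.646, 0.804 and 0.838. Over the summed groups Otp was 9-fold lower per pan-neuronal count (exact 95% interval from counting 6.17 to 13.6) and Mc4r at least 18.5-fold lower. This interval and this bound cover counting error only, and leave out the spread between libraries. With libraries scaled to these genes the edgeR adjusted p was 0.12 for Otp and 0.0713 for Mc4r, so neither passed.

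**Figure D3:**
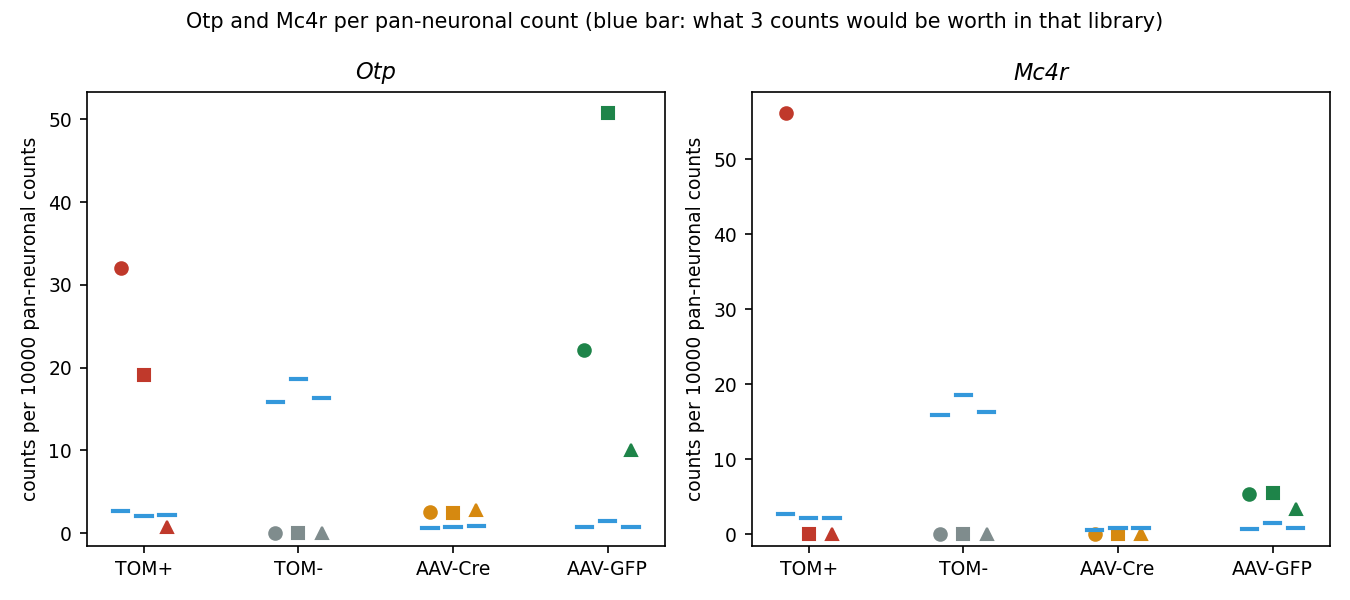
Counts of Otp (left) and Mc4r (right) per 10000 pan-neuronal counts (y axis) in the 12 libraries by group (x axis); blue bars mark what 3 counts would be worth in each library. AAV-Cre libraries lie at 2.41 to 2.79 for Otp and at 0 for Mc4r, and the bars of the TOM- libraries are the highest.

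The 4 other genes showed intervals that include no change. For Arnt2 the log2 fold change was 0.80 ± 0.43 (edgeR adjusted p = 0.369) with a 95% interval from -0.20 to 1.80, the narrowest of these 4. Pou3f2 had -1.02 ± 0.75 (edgeR adjusted p = 0.532) with an interval from -2.77 to 0.74. Mrap2 and Sim1 had the widest intervals of these 4, and both had 0 counts in AAV-Cre replicate 1. Mrap2 had -0.71 ± 1.43 (edgeR adjusted p = 0.851, interval -4.03 to 2.62) and Sim1 0.42 ± 1.40 (edgeR adjusted p = 0.917, interval -2.83 to 3.68). Without AAV-Cre replicate 2 the value of Sim1 was -0.11.

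**Figure D4:**
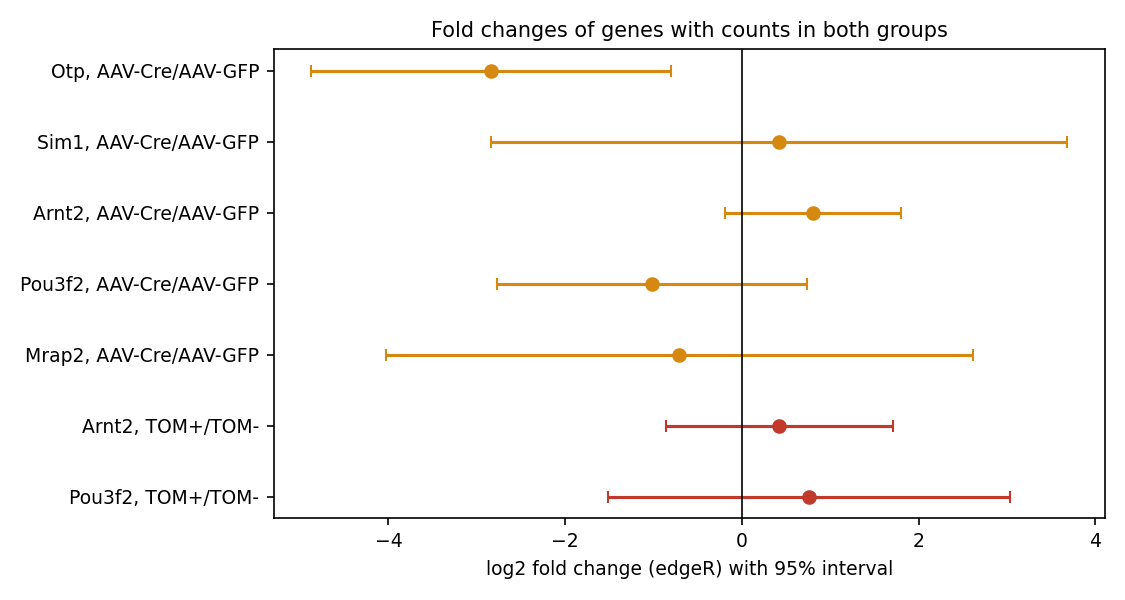
Log2 fold change (x axis) with its 95% interval for each gene that was tested and counted in both groups (y axis), AAV-Cre against AAV-GFP in orange and TOM+ against TOM- in red. The interval of Otp runs from -4.87 to -0.80, and the other 6 intervals cross 0.

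How often a gene of moderate count was missing from 1 library differed between groups. Of 12084 genes with at least 20 counts in both AAV-Cre replicates 2 and 3, 6.08% had 0 in AAV-Cre replicate 1, Sim1 and Mrap2 among them. The share was 1.77% and 1.47% for AAV-Cre replicates 2 and 3, and 0.124%, 0.0288% and 0 for the AAV-GFP libraries. In the TOM+ libraries it was 2.23%, 4.95% and 1.08%. The reverse pattern, at least 40 counts in 1 library and 0 in the other 2, was met by Mc4r in TOM+ replicate 1 and by Mrap2 in TOM+ replicate 3 and TOM- replicate 2. It was met by 1.85%, 3.25% and 0.396% of the genes with 40 counts in those libraries. Of 14592 genes with at least 10 counts in each AAV-GFP library, 3.17% (462 genes) had 0 in all AAV-Cre libraries, Mc4r among them, and of 11463 genes with at least 10 counts in each AAV-Cre library 0 were missing from all AAV-GFP libraries.

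**Figure D5:**
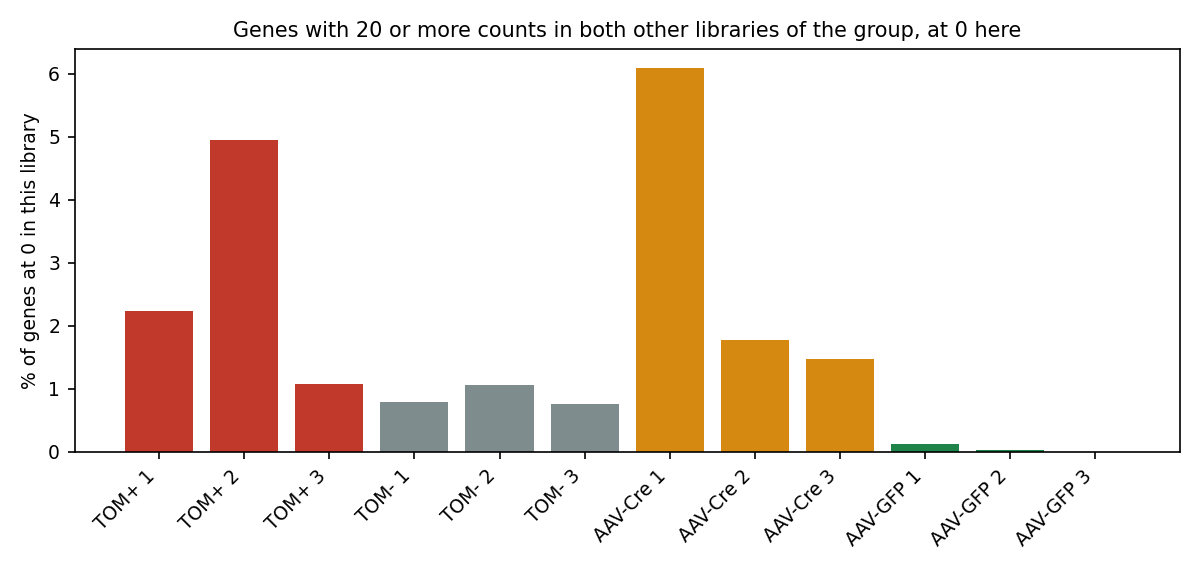
Share of genes at 0 in a library (y axis, %) among those with 20 or more counts in both other libraries of its group, for the 12 libraries (x axis). AAV-Cre replicate 1 has the highest bar, 6.08%, and the AAV-GFP libraries lie at 0.124% or less.

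Beside these genes stand their families and pathway. Of 20 melanocortin pathway genes, 11 were tested in the TOM sorts, where 2 rose and 1 fell, and the median log2 fold change was -0.39 against -0.02 over all genes tested. That is 3 of 11, beside 23.9% of all genes tested (10.4% higher, 13.4% lower), so the share called was near the background and the genes below are described one by one. Atrn, which encodes attractin, a membrane protein of agouti signalling, rose by 2.04 ± 0.39 on the log2 scale (edgeR adjusted p = 0.011), and lost its call without TOM- replicate 2 (edgeR adjusted p = 0.0601). Gnaq, a G protein alpha subunit gene, rose by 1.40 ± 0.27 (edgeR adjusted p = 0.0108). Arrb2, which encodes the receptor-desensitizing beta-arrestin 2, fell by 3.13 on the log2 scale (edgeR adjusted p = 0.000911). The microglial and oligodendrocyte differences given above ran alongside, and their part in these 3 genes was not tested. Scaled to pan-neuronal counts, the log2 value was -0.55 for Atrn and -1.18 for Gnaq (edgeR adjusted p of 0.249 and 0.0128), and Arrb2 stayed lower. That scaling moved the median of all genes tested by -2.54 and put 10605 of 15228 genes past the threshold as lower. A call as lower on it therefore says little about a single gene, and Atrn and Gnaq lay less far below 0 than the shift.

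In the PVH libraries 13 of the 20 pathway genes were tested and 0 passed with edgeR, where 2.6% of all genes did. At an unadjusted p under 0.05 stood 3 of the 13 and 18.8% of all genes tested, and the median log2 fold change was -0.25 against -0.16 over all genes. The 3 were Mc4r and Pomc, lower after AAV-Cre, and Atrn, which was higher (log2 fold change 1.31 ± 0.44, edgeR adjusted p = 0.163). Pomc encodes the precursor of the melanocortin peptides. Pomc had 152, 158 and 157 counts after AAV-GFP and 63, 25 and 57 after AAV-Cre, which gave -1.67 ± 0.68 on the log2 scale (edgeR adjusted p = 0.243). Mc3r, the other melanocortin receptor of the brain, had 30, 6 and 12 counts after AAV-GFP and 0, 0 and 63 after AAV-Cre. Mc5r, a melanocortin receptor best known from glands, had 14, 11 and 7 counts against 1, 0 and 1, and was too low to be tested. Mc1r had no count in any library.

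Of 16 bHLH-PAS genes, 10 were tested in the TOM sorts and 13 in the PVH libraries. With edgeR 0 passed in either, where 23.9% and 2.6% of all genes did. At an unadjusted p under 0.05 stood 1 and 0 of them, beside 36.4% and 18.8% of all genes tested. The smallest p in this family belonged to Hif1a, the oxygen-responsive subunit, at a log2 fold change of 1.13 ± 0.34 in TOM+ cells (edgeR adjusted p = 0.0504). Sim2, the close relative of Sim1, had 16, 106 and 15 counts after AAV-GFP and 0, 1 and 43 after AAV-Cre. Arnt, the widely used relative of Arnt2, had 363 and 720 counts in AAV-Cre replicates 2 and 3 and 5 in replicate 1. That replicate 1 was the library in which Arnt2 was highest and genes of moderate count were most often missing.

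The 4 genes of the POU3 family were tested in both comparisons and 0 passed with edgeR, none at an unadjusted p under 0.05. Over all genes tested, 23.9% (TOM sorts) and 2.6% (PVH) passed, and 36.4% and 18.8% had an unadjusted p under 0.05. In the PVH libraries all 4 had negative log2 fold changes, from -0.30 for Pou3f1 to -1.02 for Pou3f2, beside a median of -0.16 over all genes tested. After AAV-GFP, Pou3f1 had 553, 2246 and 400 counts and Pou3f3 119, 979 and 297, so replicate 2 was the high library for both. Of 10 transcription factor genes of PVH development, 4 were tested in the TOM sorts and 10 in the PVH libraries, and 0 passed in either with edgeR. At an unadjusted p under 0.05 stood 0 and 1 of them, the latter Otp. The median log2 fold changes were 0.54 and -0.62, against -0.02 and -0.16 over all genes tested. Uncx had 37, 173 and 32 counts after AAV-GFP and 12, 0 and 87 after AAV-Cre.

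Of 5 PVH neuropeptide genes, 1 fell after AAV-Cre, beside 1.97% of all genes tested. All 5 had negative log2 fold changes, with a median of -1.84 against -0.16 over all genes tested. Of 14 markers of other hypothalamic nuclei, 9 were tested and 0 passed with edgeR, where 2.6% of all genes did. Their log2 fold changes were negative for 6 and positive for 3, with a median of -0.79. Among the PVH peptide genes, 1 passed. That gene was Sst, the somatostatin precursor (log2 fold change -1.91 ± 0.36, edgeR adjusted p = 0.0422). It did not pass when any 1 library was left out (edgeR adjusted p 0.065 to 0.18). Trh had 871, 691 and 411 counts after AAV-GFP and 194, 46 and 87 after AAV-Cre (log2 fold change -2.55 ± 0.57, edgeR adjusted p = 0.0556). For Oxt, the oxytocin precursor, the log2 fold change was -1.84 ± 0.38 (edgeR adjusted p = 0.051).

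Genes with the most similar pattern were sought over the 12 libraries for the 4 members with at least 200 counts in all and a count in at least 6 libraries, among 13333 genes. For Otp they were Trh, Cdh4 and Prlr (Pearson r of log2 CPM 0.93, 0.92 and 0.92, n = 12 libraries). For Mrap2 they were Crh, Cckbr and Rpp25 (r of 0.96, 0.94 and 0.94), for Arnt2 Sgsm2, Grin3a and Irgq (r of 0.97, 0.96 and 0.96), and for Pou3f2 Klhl32, Chrna1os and Klf5 (r of 0.85, 0.82 and 0.80). Crh, the corticotropin-releasing hormone precursor, shared with Mrap2 the 0 in AAV-Cre replicate 1 and in TOM+ replicates 1 and 2. The libraries share group, age and dissection, so these values describe likeness over unlike samples. Mc4r (109 counts in 4 libraries) and Sim1 (87 in 5) were too sparse for it.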

How the data were processed

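Per the labels' protocols, RNA came from cells sorted into Trizol, and the SMART-Seq mRNA LP kit gave the libraries, with no molecular identifiers described. Per the submitters' processing notes the authors used FastQC, Trim Galore, STAR and featureCounts on mm10, and per the file headers (AAV libraries) featureCounts 2.0.1 on GENCODE vM30, by gene name, in pairs and without strand. That annotation belongs to a later build, so locus coordinates are given as vM30 has them and promoter windows as GRCm38.p6. For the TOM table, counting settings were not given in the sources used here. The deposited values are whole-number counts per gene, not normalized, and the 6 single AAV files equalled the joint table. Exonic lengths are other values of those files.

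For each comparison its 6 libraries alone entered edgeR 4.0.16 (R 4.3.3): TMM scaling, filterByExpr, quasi-likelihood test, two-sided, Benjamini-Hochberg over all genes tested, threshold 0.05. SEs derive from the F statistic. Alternatives were RLE factors, library totals alone, no filter, DESeq2 1.42.0, a replicate block, thinning to equal depth and each library left out. Scaling to pan-neuronal counts and DESeq2 on the genes edgeR tested were chosen after seeing the data. The steps were tested on simulated data. The genes and lists were chosen with earlier results of these data known. Named are the 6 genes, list members that passed or else had the smallest p, close relatives of the 6, and the 3 genes most like each by pattern. Genes named outside that rule, chosen after their values were seen, are Uncx, Pmch, Hcrt, Pomc, Mc3r, Mc5r, Mc1r, Sim2, Arnt, Trh, Oxt, Avp, Crh, Tbx3 and the cell-type markers.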

Additional observations from a re-analysis of the deposited data

How the results depend on the processing

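The counts of genes past the threshold moved with the processing. For TOM+ against TOM-, 3635 genes passed with edgeR, 5521 with DESeq2, 10658 scaled to pan-neuronal counts (53 higher, 10605 lower) and 1511 to 3547 with 1 library left out, lowest without TOM- replicate 2. Library totals alone turned the split of 1589 higher and 2046 lower into 2204 and 1532. For AAV-Cre against AAV-GFP, 400 passed with edgeR, 712 without a filter, 1884 with DESeq2, 1531 with DESeq2 on the genes edgeR tested, 223 scaled to pan-neuronal counts, and 0 to 296 with 1 library left out. The edgeR count was 0 without AAV-GFP replicate 1 (2609 at an unadjusted p under 0.05), 2 without AAV-GFP replicate 2, 0 without AAV-GFP replicate 3 (2342) and 122 without AAV-Cre replicate 2. Scaling by library totals or pan-neuronal counts moved the median of all genes by 0.26 and -2.54 (TOM) and by 0.16 and -0.41 (AAV).

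Of 84 refits of the 6 genes after AAV-Cre, 79 kept direction and side of the threshold, as did 25 of 28 of Arnt2 and Pou3f2 in the TOM sorts. In the main edgeR fit none of these genes had passed, and some refits left 0 genes of any kind past the threshold. Keeping that side is therefore no measure of stability. In the TOM sorts the other 4 genes were untested, and Mc4r had no read without TOM+ replicate 1. Log2 fold changes past the threshold only with DESeq2 were -6.24 for Mc4r and -2.79 for Otp after AAV-Cre (-2.80 for Otp on the genes edgeR tested), and 6.72 for Otp in the TOM sorts. With pan-neuronal scaling the sign turned for Arnt2 (-2.20) and Pou3f2 (-1.78) in the TOM sorts. With 1 library left out, Pou3f2 ran there from -0.62 to 1.21, Sim1 after AAV-Cre from -0.11 to 1.00, and the untested difference in mean CPM of Mrap2 in the TOM sorts from -0.684 to 0.532. With 1 library left out after AAV-Cre, the edgeR adjusted p ran from 0.148 to 0.34 for Otp and from 0.0732 to 0.18 for Mc4r. The causes were not tested. Mc4r, Otp, Sim1 and Mrap2 were not refitted in the TOM sorts with a block or with pan-neuronal scaling.

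No pairing by replicate number was seen: deviations of same-numbered libraries correlated at -0.0702 to 0.0246. With 3 libraries per group, each set against its own group mean, these values cannot exclude a pairing. With a replicate block 1987 genes passed in the TOM sorts and 0 after AAV-Cre (2013 at an unadjusted p under 0.05, edgeR), and Sim1 had a log2 fold change of -0.31 there.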
